A study of Mus musculus with 23 samples.

Results

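The exercise effect common to sorted cancer cells and sorted cells of the tumour microenvironment (TME) was the mean of 2 differences, exercised minus sedentary cancer cells and exercised minus sedentary TME cells, each weighted 0.5. All 23 libraries of the series entered it. They were 7 libraries of iRFP-positive cancer cells from exercised mice, 8 of such cells from sedentary mice, and 4 libraries of iRFP-negative TME cells from mice of each treatment. The mice were FVB and every tumour was grown from Met1-iRFP cells, so that the strain, the tumour line and the fluorescent marker were shared by all groups. Met-1 cells derive from a mammary tumour of MMTV-PyMT mice, in which a viral oncogene drives breast cancer, and the near-infrared protein iRFP marks them for sorting. Neither the form and length of the exercise nor the age of the mice is stated in the labels. The labels do not tell whether every library is from its own animal, so the p-values measure the spread among libraries, which may in part be technical. Nor do they tell whether cancer and TME libraries of one number and treatment share a tumour, and the main fit takes all libraries as independent.

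Of 17503 genes tested, 10421 (59.5%) moved the same way in both sorts, and the called genes, the members on which the results turn, are among these. Gene lists are described whole, so that they also hold genes whose effects had opposite signs in both sorts. At a Benjamini-Hochberg adjusted p under 0.05 in the quasi-likelihood test of edgeR, 82 genes were called, which is 0.468% of the genes tested. Exercise raised 60 of them (0.343%) and lowered 22 (0.126%). At an unadjusted p under 0.05 there were 3122 genes (17.8%), 2094 higher (12%) and 1028 lower (5.87%), where 875 are expected if no gene changed. All 82 called genes moved the same way in both sorts, which a mean of both effects favours. Of the 82, 54 had an unadjusted p under 0.05 by edgeR in each sort fitted alone, with the same sign. The call was marginal for most of the 82, with an adjusted p above 0.04 for 74. The genes under 0.02 were Tnfrsf25 and Il20rb, 2 receptor genes that were lower after exercise. The count of 82 rested on single libraries: leaving out each of the 23 in turn gave 1 to 1158 calls, with 3 or fewer in 12 of the 23 cases. Without exercised TME library 7 it was 1158, and without exercised TME library 9 or sedentary TME library 10 it was 1. Tnfrsf25 was called in all 23 of these fits and Il20rb in 21. With the replicate number as a fixed block edgeR called 3 genes. With the number within a treatment as a random block limma voom called 2. What a number marks is not stated in the labels.

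Total counts were 20073700 to 25526059 in exercised and 15924340 to 25563245 in sedentary cancer libraries, and 22682216 to 37388479 in exercised and 16307545 to 35958441 in sedentary TME libraries. Several libraries stood apart. The mean level of 12 pan-leukocyte markers was highest in exercised TME libraries 8 and 9, and among cancer libraries in exercised library 8. In sedentary TME libraries 4 and 6 the share of reads from mitochondrial genes reached 42.2% and 14.5%. The sorts differed in leukocyte markers, whose summed level was 72.5 to 166 and 49.01 to 102 CPM (reads scaled to the size of the library) in exercised and sedentary cancer libraries, against 417 to 2412 and 573 to 766 CPM in exercised and sedentary TME libraries. They did not separate by the sum of 10 epithelial tumour markers, a list that includes the osteopontin gene Spp1. These summed to 10995 to 21544 and 11988 to 20349 CPM in exercised and sedentary cancer libraries, and to 10837 to 15362 and 10509 to 13558 CPM in exercised and sedentary TME libraries. Only 6 of the 10 passed the filter, and the mean log2 CPM of the list was 4.79 to 5.22 over the 4 groups. A list of 21 epithelial and mammary luminal genes summed to only 469 to 854 CPM over all libraries. The sum of the 10 markers therefore does not show that each was abundant or alike in both sorts. How many tumour cells the iRFP-negative sort held was not tested.

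As background, members of the tumour necrosis factor (TNF) receptor superfamily bind ligands on or from neighbouring cells and signal through adaptor proteins to NF-kB or to caspases. TNFRSF25, also called DR3, binds TL1A, the product of Tnfsf15, and is known for co-stimulating T cells. IL20RB pairs with IL20RA or IL22RA1 to form receptors for the cytokines IL-19, IL-20 and IL-24, which act mainly on epithelial cells. The circadian clock runs on a loop in which CLOCK and BMAL1, the product of Arntl, drive the Per and Cry genes, whose proteins repress them, and the output factors DBP, TEF and HLF act through D-box elements. Interferons act through STAT and IRF factors at the elements known as ISRE and GAS, and switch on antiviral and antigen-presentation genes.

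The promoters of 6 genes are printed because the results turn on these genes and because those of the clock and interferon genes hold the elements just named. They come from RefSeq (GRCm38.p6) and run from 250 bases before to 50 bases after the annotated start, 5′ to 3′ on the gene's own strand. Capitals mark matches on either strand to the E-box CACGTG, the D-box TTANNTAA, the ISRE (GAAA, any 2 bases, GAAA) or the GAS TTCNNNGAA.
Tnfrsf25 promoter, chr4:152115684-152115983, plus strand: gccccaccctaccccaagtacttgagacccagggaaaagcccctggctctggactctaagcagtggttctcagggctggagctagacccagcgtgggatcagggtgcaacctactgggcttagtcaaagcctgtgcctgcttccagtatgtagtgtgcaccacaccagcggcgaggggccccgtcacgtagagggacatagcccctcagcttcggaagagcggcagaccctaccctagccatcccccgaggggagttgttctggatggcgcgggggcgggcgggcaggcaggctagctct
Il20rb promoter, chr9:100486424-100486723, minus strand: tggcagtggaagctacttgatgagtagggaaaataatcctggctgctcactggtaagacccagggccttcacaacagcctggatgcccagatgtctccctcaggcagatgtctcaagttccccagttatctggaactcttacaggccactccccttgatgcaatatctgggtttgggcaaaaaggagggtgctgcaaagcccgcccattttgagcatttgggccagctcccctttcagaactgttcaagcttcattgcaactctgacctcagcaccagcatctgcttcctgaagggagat
Per3 promoter, chr4:151044616-151044915, minus strand: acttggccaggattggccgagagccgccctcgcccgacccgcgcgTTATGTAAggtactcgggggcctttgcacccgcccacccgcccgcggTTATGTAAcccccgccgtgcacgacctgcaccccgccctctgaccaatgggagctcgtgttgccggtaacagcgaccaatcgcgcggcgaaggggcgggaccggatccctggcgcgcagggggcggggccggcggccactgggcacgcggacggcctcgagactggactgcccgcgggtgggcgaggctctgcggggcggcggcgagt
Tef promoter, chr15:81802423-81802722, plus strand: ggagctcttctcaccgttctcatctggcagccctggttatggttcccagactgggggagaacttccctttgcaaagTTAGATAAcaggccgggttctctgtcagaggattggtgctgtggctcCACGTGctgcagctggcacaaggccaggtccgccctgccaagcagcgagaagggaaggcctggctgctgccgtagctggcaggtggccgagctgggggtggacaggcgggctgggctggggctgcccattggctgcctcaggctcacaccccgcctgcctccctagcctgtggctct
Rsad2 promoter, chr12:26456403-26456702, minus strand: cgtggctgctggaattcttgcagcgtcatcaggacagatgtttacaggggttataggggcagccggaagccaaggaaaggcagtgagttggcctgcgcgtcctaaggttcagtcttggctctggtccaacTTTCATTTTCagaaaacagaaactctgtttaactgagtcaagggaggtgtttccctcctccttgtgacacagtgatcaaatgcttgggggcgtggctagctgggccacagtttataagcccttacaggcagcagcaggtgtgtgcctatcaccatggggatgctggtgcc
Ddx60 promoter, chr8:61927837-61928136, plus strand: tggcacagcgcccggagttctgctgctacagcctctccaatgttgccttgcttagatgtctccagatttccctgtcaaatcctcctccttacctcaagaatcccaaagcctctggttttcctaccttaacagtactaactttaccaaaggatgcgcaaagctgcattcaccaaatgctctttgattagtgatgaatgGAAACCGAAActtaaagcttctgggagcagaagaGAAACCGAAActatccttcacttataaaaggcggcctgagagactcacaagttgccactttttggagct

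Of 32851 promoter windows in the table, 7.15% held the E-box, 6% the D-box, 3.44% the ISRE and 8.3% the GAS, where a window with several or overlapping matches counts once. A promoter was listed for 11174 of the 17503 genes tested and for 64 of the 82 called genes, and a gene with several promoters was counted as holding a motif where any of them did. The D-box was found in 2 of 18 called lower genes, Per3 and Tef, or 11.1%, in 5 of 46 called higher genes (10.9%) and in 4.41% of all tested genes. The ISRE was found in 6 of 46 called higher genes (13%), among them Rsad2, Ddx60 and Slfn8, in 0 of 18 called lower genes and in 3.87% of all tested genes. The E-box was found in 4 of 46 higher and 2 of 18 lower genes (11.2% of all tested genes) and the GAS in 5 of 46 and 1 of 18 (8.32%). Of the interferon lists, 10 of 16 type I genes (62.5%) and 9 of 20 interferon-gamma genes (45%) with a promoter held the ISRE, and 5 of 16 clock genes held the E-box. The printed windows of Tnfrsf25 and Il20rb held none of the 4 motifs, while another listed promoter of Tnfrsf25 held the GAS letters. The Il20rb window lies inside the gene's span given below, so it does not hold the letters before the start of that span. A match is a description of the letters and was not tested as a binding site.

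Tnfrsf25 (chromosome 4, 152115934 to 152120119, GRCm38) had the smallest p of all genes and was lower after exercise in both sorts. Its lowest, median and highest TMM-scaled levels were 17.4, 23.1 and 34.2 CPM in exercised cancer cells, against 30.5, 37.3 and 54.01 CPM in sedentary cancer cells. In TME libraries the levels were 42.8, 29.9, 24.6 and 26.9 CPM after exercise and 73.03, 59.9, 47.8 and 68.4 CPM in sedentary mice. The TME groups did not overlap, and the cancer groups overlapped through the highest exercised library, while all 7 exercised cancer libraries lay below the sedentary mean. The mean effect was -0.87 ± 0.13 (log2 fold change ± SE, adjusted p = 0.00402, edgeR's quasi-likelihood test), made up of -0.73 ± 0.15 in cancer and -1.003 ± 0.20 in TME cells. The difference between both effects had an unadjusted p of 0.28.

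Il20rb (chromosome 9, 100457719 to 100486788) followed, also lower after exercise in both sorts. Its lowest, median and highest levels were 10.3, 13.9 and 17.5 CPM in exercised against 14.03, 19.2 and 25.2 CPM in sedentary cancer libraries. TME libraries had 14.8, 13.9, 12.4 and 15.1 CPM after exercise and 22.6, 27.5, 19.2 and 25.04 CPM in sedentary mice. Again the TME groups were apart, and in the cancer groups the ranges overlapped with all 7 exercised libraries below the sedentary mean. The mean effect was -0.60 ± 0.10 (adjusted p = 0.0144, edgeR), with -0.46 ± 0.12 in cancer and -0.75 ± 0.16 in TME cells. With the pan-leukocyte level of each library as a covariate the mean effects were -0.79 for Tnfrsf25 and -0.54 for Il20rb, with adjusted p-values of 0.0752 and 0.228. Without exercised TME libraries 8 and 9 they were -0.80 and -0.58, and the adjusted p was 0.125 for each. With the mitochondrial share in the fit they were -0.78 and -0.56 (adjusted p = 0.0693 and 0.156, edgeR). Without sedentary TME libraries 4 and 6, which had high mitochondrial shares, they were -0.83 and -0.57 (adjusted p = 0.0828 and 0.0833, edgeR).

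Several partners of these receptors were near or under the detection limit. The transcript of Tnfsf15, which encodes the ligand of TNFRSF25, had at most 3 and 2 reads in any exercised and sedentary cancer library, and at most 12 and 4 in any exercised and sedentary TME library. Il20ra and Il22ra1, the partner chains of IL20RB, had no more than 12 reads in any library, and the 3 genes were not tested. Among the ligands of IL20RB, Il24 had a mean effect of 0.37 ± 0.44 (adjusted p = 0.707) and Il19 one of -0.34 ± 0.41 (adjusted p = 0.714). Both came from few reads, at most 103 for Il24 and 49 for Il19 in any library. Il20 had at most 3 reads in any library and was not tested. Of 25 TNF superfamily receptors tested, Tnfrsf25 was the 1 called, beside 0.468% of all genes called. Of the 25, 12 lay above and 13 below 0, with a median effect of -0.031 beside 0.026 over all genes. That median was 0.073 with the mitochondrial share and 0.038 without sedentary TME libraries 4 and 6. The receptors next in rank lay above 0. These were the RANK gene Tnfrsf11a (0.85 ± 0.22, adjusted p = 0.0636), Cd40 (1.12 ± 0.35, adjusted p = 0.106) and the TNF receptor gene Tnfrsf1b (0.60 ± 0.22, adjusted p = 0.159). Of 13 TNF superfamily ligands tested, 0 were called, and Il20rb was the 1 called of 7 genes tested from the IL-10 and IL-20 families.

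**Figure D1:**
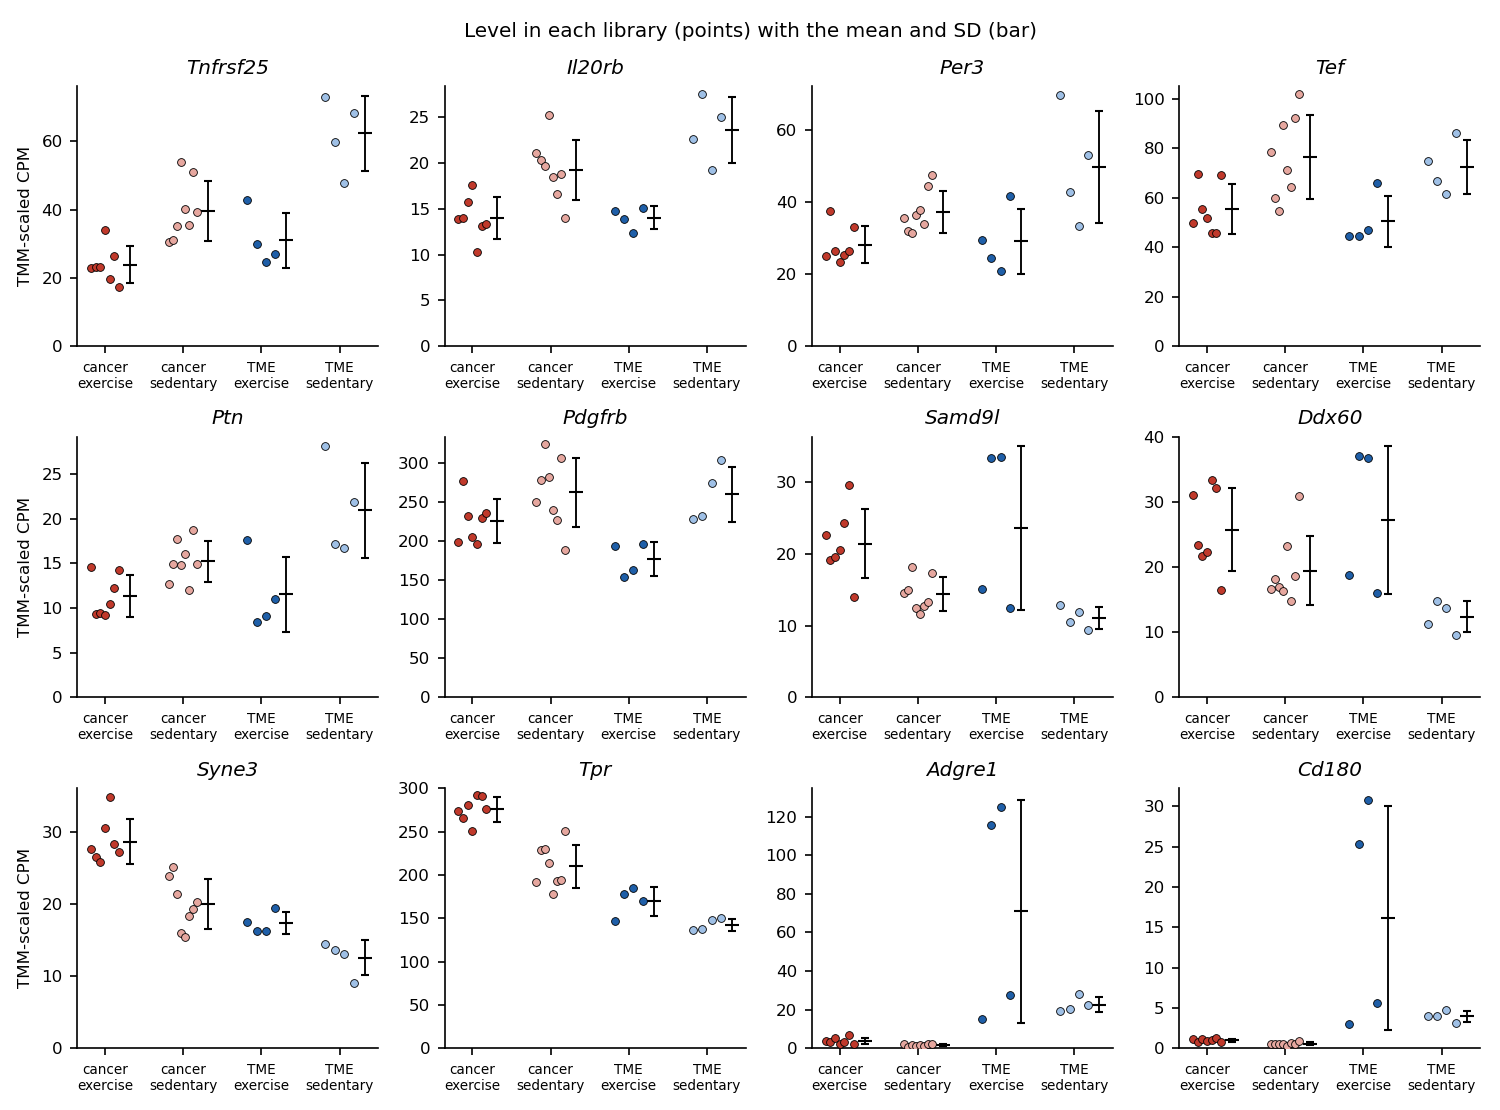
TMM-scaled CPM of 12 genes in each library (points) of the 4 groups, with the group mean and SD beside them; every axis starts at 0. Tnfrsf25 lies at 17.4 to 34.2 CPM in exercised and 30.5 to 54.0 CPM in sedentary cancer libraries, Syne3 does not overlap in either sort, and Adgre1 and Cd180 are raised in TME cells mainly in 2 exercised libraries.

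Among clock genes, the period gene Per3 and the output factor gene Tef fell after exercise in the mean of both sorts, with the same sign in each. Of 19 clock genes tested, Per3 and Tef were called lower and none higher, beside 0.126% of all genes called lower. Per3, a period gene, had its lowest, median and highest levels at 23.3, 26.4 and 37.39 CPM in exercised against 31.4, 35.96 and 47.6 CPM in sedentary cancer libraries. In TME libraries Per3 had 29.5, 24.5, 20.7 and 41.5 CPM after exercise and 69.7, 42.9, 33.3 and 52.9 CPM in sedentary mice. All groups of Per3 overlapped, and its mean effect was -0.59 ± 0.13 (adjusted p = 0.0448, edgeR). That effect was -0.41 with the mitochondrial share in the fit and -0.50 without sedentary TME libraries 4 and 6. Tef, a D-box factor gene, had 45.7, 51.6 and 69.4 CPM (lowest, median, highest) in exercised and 54.6, 74.7 and 102 CPM in sedentary cancer libraries. Its TME levels were 44.7, 44.4, 46.9 and 65.7 CPM after exercise and 74.9, 66.9, 61.6 and 86.2 CPM in sedentary mice, where 1 exercised library reached into the sedentary range. Its effect was of like size in both sorts, -0.47 ± 0.13 in cancer and -0.52 ± 0.18 in TME cells, and -0.49 ± 0.11 in the mean (adjusted p = 0.047, edgeR).

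Next in rank, and not called, were Dbp, another D-box factor gene, and Nr1d2, which encodes the repressor REV-ERB beta. Dbp was at 1.99, 3.14 and 8.59 CPM (lowest, median, highest) in exercised against 5.09, 8.60 and 13.5 CPM in sedentary cancer libraries, and at 2.80, 5.60, 4.75 and 8.38 CPM in exercised against 14.3, 8.84, 6.78 and 10.4 CPM in sedentary TME libraries. Its mean effect was -0.96 ± 0.23 (adjusted p = 0.0531), and that of Nr1d2 was -0.50 ± 0.13 (adjusted p = 0.0657). On the genome Per3, Tef and Dbp overlap Camta1, Gm17597 and Sphk2, with which reads may be shared. Over all libraries Camta1 had 5450 reads beside 18562 of Per3, and Gm17597 had 54 beside 34778 of Tef. Sphk2 had 8029 reads beside 3595 of Dbp. The sign was positive for Arntl, which encodes the activator BMAL1, with 0.31 ± 0.098 (adjusted p = 0.102), 0.18 in cancer and 0.44 in TME cells. The repressor genes Nr1d1 (-0.60 ± 0.29), Per2 (-0.40 ± 0.24), Bhlhe41 (-0.28 ± 0.11) and Cry1 (0.21 ± 0.096) had adjusted p-values of 0.182 to 0.387, with Cry1 above 0. Further from the threshold, mean effects ran from -0.15 for the period gene Per1 to 0.24 for the repressor gene Ciart, with Clock at 0.088 ± 0.070 and Cry2 at 0.10 ± 0.11. The median over the list was -0.070, with 11 of 19 below 0, and it turned to 0.040 with the mitochondrial share in the fit. The time of day of sampling is not stated in the labels, and its part in these values was not tested.

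Ptn, which encodes the secreted growth factor pleiotrophin, had 9.19, 10.4 and 14.6 CPM (lowest, median, highest) in exercised against 11.96, 14.9 and 18.7 CPM in sedentary cancer libraries. Its TME levels were 17.6, 8.38, 9.09 and 11.05 CPM after exercise and 28.1, 17.1, 16.7 and 21.9 CPM in sedentary mice, with 1 exercised library inside the sedentary range. The mean effect was -0.64 ± 0.13 (adjusted p = 0.0406, edgeR). Pdgfrb, a platelet-derived growth factor receptor gene in the list of pericyte and smooth muscle markers, averaged 225 ± 28.2 CPM in exercised and 262 ± 44.4 CPM in sedentary cancer cells (SD, n = 7 and 8). In TME libraries it was at 193, 154, 163 and 197 CPM after exercise and 229, 233, 274 and 303 CPM in sedentary mice, without overlap. Its sedentary levels were alike in both sorts, so here it did not set TME cells apart from cancer cells. It fell by 0.39 ± 0.087 on the log2 scale in the mean of both sorts (adjusted p = 0.047). It was the 1 called of 9 pericyte and smooth muscle markers, beside 0.126% of all genes called lower. Of the 9 markers, 8 lay below 0, with a median of -0.18. With the leukocyte level in the fit that median turned to 0.085, with 4 of 9 below 0, and with the mitochondrial share it was -0.094. Igfbp2, which encodes a binding protein of insulin-like growth factors, had a mean effect of -1.43 ± 0.32 (adjusted p = 0.047), from means of 1.23 ± 0.336 CPM in exercised against 2.31 ± 1.25 CPM in sedentary cancer cells and 1.72 ± 1.17 against 6.78 ± 2.45 CPM in TME cells.

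Thrsp, a regulator of fatty acid synthesis, fell in the mean of both sorts. Its lowest, median and highest levels were 3.23, 5.78 and 6.32 CPM in exercised against 5.30, 7.50 and 17.6 CPM in sedentary cancer libraries, and its TME levels were 10.1, 8.03, 6.02 and 6.61 CPM after exercise and 12.9, 12.4, 11.4 and 20.6 CPM in sedentary mice. The TME groups did not overlap, and the mean effect was -0.79 ± 0.18 (adjusted p = 0.047, edgeR). It was the 1 called of 15 fatty acid synthesis genes, beside 0.126% of all genes called lower. The other members of this list stood mostly on the other side of 0. Fasn, the fatty acid synthase gene, had 0.26 ± 0.077 (adjusted p = 0.0876), Acaca, the acetyl-CoA carboxylase gene, 0.21 ± 0.063 (adjusted p = 0.0931), and the desaturase gene Scd1 0.31 ± 0.13 (adjusted p = 0.2). In all 12 of the 15 lay above 0, with a median of 0.056. Without sedentary TME libraries 4 and 6, which had high mitochondrial shares, 7 lay above and 8 below 0, with a median of -0.0073. Other ranked genes below 0 were the nuclear import gene Ipo13 (-0.26 ± 0.056), the Fanconi-associated gene Faap20 (-0.38 ± 0.082), the nuclear receptor gene Nr2f1 (-0.35 ± 0.078) and the YAP partner gene Tead2 (-0.35 ± 0.078), all at adjusted p-values of 0.0446 to 0.047. For Nr2f1 the mean came from TME cells, with -0.66 ± 0.13 there and -0.041 ± 0.092 in cancer cells.

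**Figure D2:**
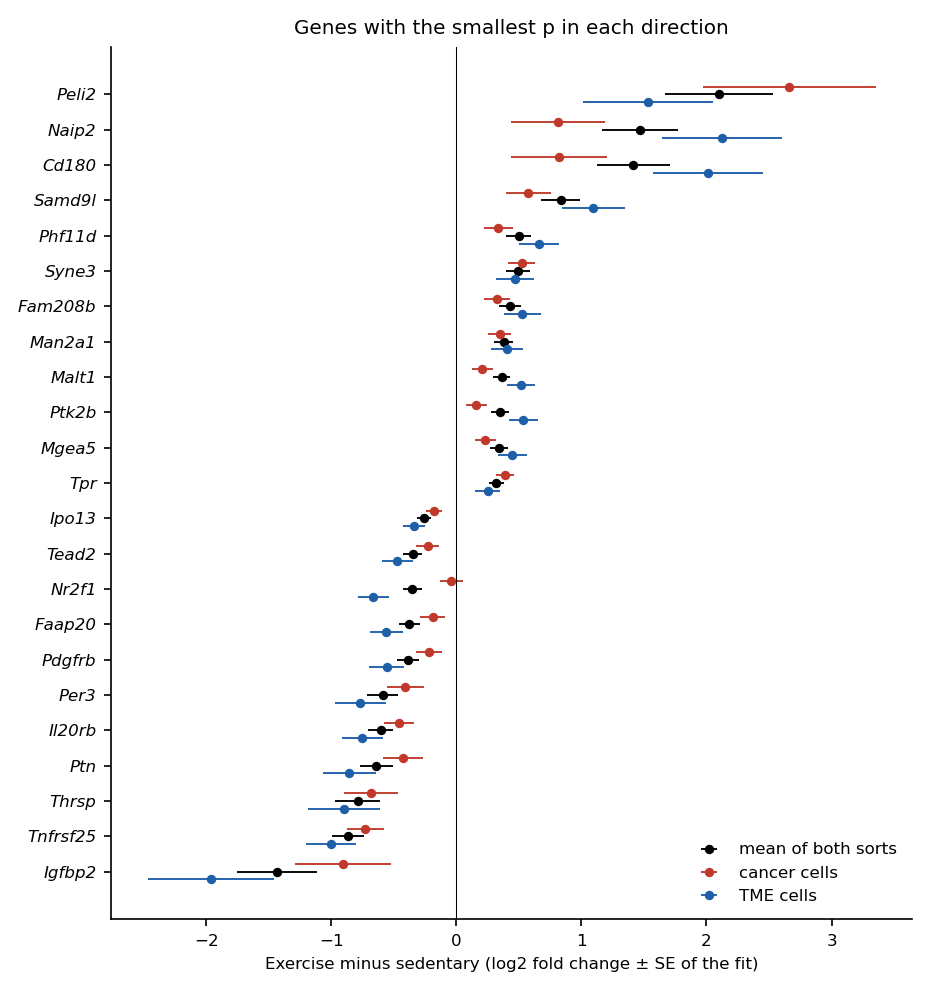
Exercise effect (log2 fold change, exercised minus sedentary, ± SE of the fit) of genes with the smallest p in each direction (12 higher and 11 lower shown), for the mean of both sorts (black), cancer cells (red) and TME cells (blue). Syne3 lies at 0.52 in cancer and 0.47 in TME cells, while Nr2f1 lies at -0.041 in cancer and -0.66 in TME cells; the cancer value of Peli2 rests on a few reads per library.

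Samd9l, an interferon-induced growth-restricting gene (chromosome 6, 3372257 to 3399572), led the ranked genes above 0. Its lowest, median and highest levels were 14.02, 20.6 and 29.5 CPM in exercised against 11.6, 13.9 and 18.2 CPM in sedentary cancer libraries, with 6 of 7 exercised libraries above the sedentary mean. In TME libraries it had 15.1, 33.4, 33.5 and 12.5 CPM after exercise and 12.8, 10.4, 11.8 and 9.35 CPM in sedentary mice. Exercised TME libraries 8 and 9 were high, and the other 2 lay near the sedentary libraries. The mean effect was 0.83 ± 0.15 (adjusted p = 0.0364, edgeR), 0.57 ± 0.18 in cancer and 1.096 ± 0.25 in TME cells. Ddx60, a gene for an antiviral helicase, had 16.5, 23.4 and 33.3 CPM (lowest, median, highest) in exercised and 14.8, 17.6 and 30.96 CPM in sedentary cancer libraries. Its TME levels of 18.8, 37.1, 36.8 and 15.97 CPM after exercise did not overlap the 11.2, 14.9, 13.7 and 9.61 CPM of sedentary mice, and the mean effect was 0.77 ± 0.16 (adjusted p = 0.046). Rsad2, which encodes the antiviral protein viperin, had its larger effect in TME cells, with 16.02, 19.8, 25.2 and 8.96 CPM after exercise against 6.46, 7.27, 5.19 and 6.48 CPM in sedentary mice. In cancer cells it averaged 2.42 ± 0.574 CPM after exercise and 2.02 ± 1.04 CPM in sedentary mice (SD, n = 7 and 8), and the effects were 0.27 ± 0.25 in cancer and 1.47 ± 0.33 in TME cells.

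Of 25 interferon-gamma response genes, 3 were called higher, beside 0.343% of all genes. Of the 25, 22 lay above 0, beside 55.3% of all genes, with a median of 0.28 beside 0.026. The called members were Ciita, the master regulator of MHC class II (1.09 ± 0.23), Cd274, the gene of the T cell inhibitor PD-L1 (0.79 ± 0.18), and Nlrc5, the regulator of MHC class I (0.56 ± 0.13), with adjusted p-values of 0.047 to 0.0492. Nlrc5 had 107, 132 and 189.5 CPM (lowest, median, highest) in exercised against 83.4, 111 and 192 CPM in sedentary cancer libraries, and 196, 191, 168 and 168 against 90.8, 131, 87.95 and 111 CPM in TME libraries, where the groups did not overlap. Cd274 had an effect of 1.45 ± 0.29 in TME cells, which was not called there, and of 0.13 ± 0.21 in cancer cells. The difference between both effects had an unadjusted p of 0.001 and an adjusted p of 0.464 in edgeR. Of 20 type I interferon genes, 17 lay above 0 (median 0.27), and Rsad2 was the 1 called. The next were the sensor gene Ifih1 (0.58 ± 0.15, adjusted p = 0.0637) and the antiviral genes Oasl1 (0.65 ± 0.19) and Oas3 (0.80 ± 0.25). All 8 MHC class II pathway genes lay above 0 (median 0.61), with Cd74 at 0.95 ± 0.27 (adjusted p = 0.0901), as did 13 of 14 class I pathway genes (median 0.23). Further called genes, chosen after their values were seen, were Slfn8 (0.90 ± 0.19), the inflammasome protease gene Casp1 (0.72 ± 0.17) and Pnpt1 (0.34 ± 0.075).

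Values of several of these lists and genes depended on exercised TME libraries 8 and 9, in which leukocyte markers were highest. With the pan-leukocyte level added to the fit the median was 0.056 for the type I interferon list, 0.18 for the interferon-gamma list and 0.0060 for the MHC class II list. Without exercised TME libraries 8 and 9 these medians were 0.022, 0.18 and 0.083. The MHC class I list kept a median of 0.17 with the leukocyte level and 0.17 without these libraries, and 14 of its 14 genes lay above 0 in both fits. In the main fit all 4 lists had larger medians in TME than in cancer cells. These were 0.087 in cancer and 0.37 in TME cells for MHC class I and 0.43 and 0.87 for MHC class II. The interferon-gamma list had 0.14 and 0.44, and the type I list 0.18 and 0.44. In the fit without libraries 8 and 9 and in that with the leukocyte level, the mean effects were 0.52 and 0.49 for Ciita, 0.44 and 0.47 for Cd274, 0.43 and 0.47 for Ddx60, 0.35 and 0.36 for Slfn8 and 0.45 and 0.47 for Casp1. Without these libraries Samd9l had a mean effect of 0.43 and Nlrc5 one of 0.55, each with an adjusted p of 0.449, and 0 genes were called by edgeR with the covariate or without these libraries (1331 and 1399 at an unadjusted p under 0.05).

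Genes of leukocytes were among those that rose. Of the 60 genes called higher, 12 (20%) were at least 4-fold higher in sedentary TME than in sedentary cancer cells, against 6.9% of all genes, and 0 of the 22 called lower were. They included Adgre1, which encodes the macrophage protein F4/80, Cd180, a Toll-like receptor relative, the inhibitory receptor genes Lair1 and Lilr4b, and Csf2rb2. Adgre1 had 2.17, 3.18 and 7.07 CPM (lowest, median, highest) in exercised against 0.804, 1.67 and 2.16 CPM in sedentary cancer libraries, which did not overlap. Its TME levels were 15.2, 116, 125 and 27.4 CPM after exercise and 19.5, 20.2, 28.1 and 22.2 CPM in sedentary mice. Exercised libraries 8 and 9 were several-fold above the rest, and library 7 was below every sedentary library. The mean effect was 1.46 ± 0.32 (adjusted p = 0.0492, edgeR). Cd180 had 2.98, 25.3, 30.7 and 5.59 CPM in exercised against 4.03, 4.06, 4.80 and 3.13 CPM in sedentary TME libraries, and averaged 1.02 ± 0.194 against 0.571 ± 0.179 CPM in cancer libraries (SD, n = 7 and 8). Lair1 had a mean effect of 1.31 ± 0.30, 0.93 in cancer and 1.69 in TME cells. In the fit without exercised TME libraries 8 and 9 and in that with the leukocyte level, the mean effects were 0.58 and 0.41 for Adgre1, 0.44 and 0.42 for Cd180, 0.49 and 0.42 for Lair1 and 0.55 and 0.56 for Naip2. Reads of Cd180 may include some of Mast4, which overlaps it on the other strand, as the counting is not stated to use strand. The inflammasome sensor gene Naip2 (1.47 ± 0.30) and the ubiquitin ligase gene Peli2 were also highest in exercised TME libraries 8 and 9, Peli2 with 1.80, 5.63, 6.33 and 2.48 CPM in exercised against 1.69, 1.20, 1.80 and 0.939 CPM in sedentary TME libraries and at most 0.331 CPM in exercised and 0.0923 CPM in sedentary cancer libraries.

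The marker lists of these cells lay on the same side. With 1 called, beside 0.343% of all genes called higher, all 12 macrophage markers lay above 0 (median 0.86, with 0.61 in cancer and 1.15 in TME cells). The same held for 12 of 12 pan-leukocyte markers (median 0.70), 11 of 11 T cell markers (1.13) and 9 of 9 mast cell markers (1.11), of which 0 were called. T cell markers were low, with a sum of 7.80 to 15.1 CPM in exercised and 5.85 to 10.3 CPM in sedentary cancer libraries. In TME libraries their sum overlapped, at 12.1 to 82.8 CPM after exercise and 12.9 to 35.1 CPM in sedentary mice. Mast cell markers summed to 5.47 to 51.3 CPM in exercised and 6.26 to 26.8 CPM in sedentary cancer libraries, and to 192 to 1494 and 182 to 408 CPM in exercised and sedentary TME libraries. Endothelial markers went the other way, with 12 of 12 below 0 (median -0.93) and 0 called. The tight-junction gene Cldn5 had -1.74 ± 0.46 (adjusted p = 0.0688) and the cadherin gene Cdh5 -0.92 ± 0.26 (adjusted p = 0.0829). No marker of these lists was at 0 in all libraries of either sort. Without exercised TME libraries 8 and 9 the medians were 0.14 for macrophage, 0.011 for T cell, 0.38 for mast cell and -0.76 for endothelial markers. Without sedentary TME libraries 4 and 6 the endothelial median was -0.44. In such bulk samples, a change in how many cells of a type a sort held and a change in RNA per cell cannot be told apart.

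**Figure D3:**
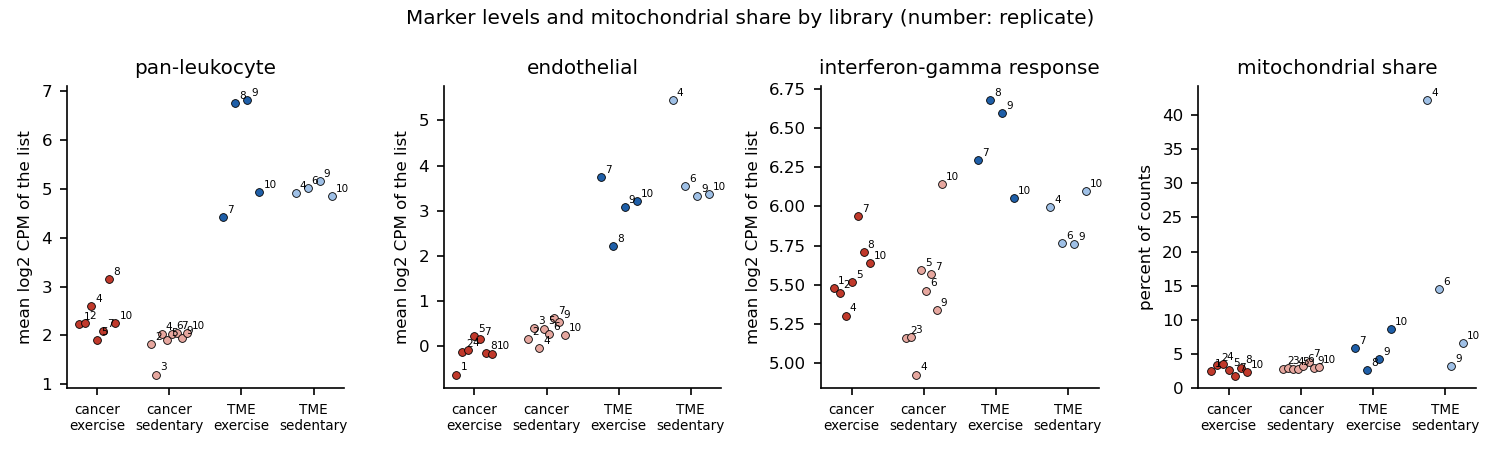
Mean log2 CPM of 12 pan-leukocyte markers, 12 endothelial markers and 25 interferon-gamma response genes, and the percentage of counts from mitochondrial transcripts, in each library (number: replicate). Exercised TME libraries 8 and 9 stand above all others in leukocyte markers, and sedentary TME library 4 in endothelial markers and in its mitochondrial share of 42.2%.

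Another group of called genes rose by smaller amounts, and 38 of the 60 genes called higher (63.3%) had sedentary levels within 2-fold of each other in both sorts, against 83% of all genes. Syne3, which encodes the nuclear envelope protein nesprin-3 (chromosome 12, 104929933 to 105009809), had 25.9, 27.6 and 34.9 CPM (lowest, median, highest) in exercised against 15.5, 19.8 and 25.2 CPM in sedentary cancer libraries. In TME libraries it had 17.6, 16.3, 16.3 and 19.4 CPM after exercise and 14.4, 13.7, 13.1 and 9.08 CPM in sedentary mice. The groups overlapped in neither sort, and the mean effect was 0.50 ± 0.096 (adjusted p = 0.0366, edgeR). Without exercised TME libraries 8 and 9 it was 0.53, and with the leukocyte covariate 0.57 (adjusted p = 0.125 and 0.0752). Over all genes tested, 3 (0.0171%) had no overlap in both sorts with the same direction. Beside Syne3 these were the dynein heavy chain gene Dync1h1 (0.22 ± 0.053, adjusted p = 0.0515) and Tex2 (0.21 ± 0.054, adjusted p = 0.0555), which were not called.

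Tpr, a gene of the nuclear pore basket, had 251, 276 and 293 CPM (lowest, median, highest) in exercised against 178, 205 and 251 CPM in sedentary cancer libraries, narrowly without overlap. Its TME levels were 146, 178, 185 and 170.1 CPM after exercise and 137, 137, 148 and 149.97 CPM in sedentary mice, and its mean effect was 0.32 ± 0.063 (adjusted p = 0.0405, edgeR). The genes of Golgi and glycan enzymes Man2a1 (0.38 ± 0.078) and Mgea5 (0.34 ± 0.071), the antigen-receptor signalling protease gene Malt1 (0.36 ± 0.069), the kinase gene Ptk2b (0.35 ± 0.072), Fam208b (0.43 ± 0.089) and the PHD finger gene Phf11d (0.50 ± 0.10) completed the ranked genes above 0. Ptk2b had 0.22 and 0.21 in the fit without exercised TME libraries 8 and 9 and in that with the leukocyte level. Malt1 had 27.96, 31.5, 34.04 and 25.95 CPM in exercised against 21.2, 22.5, 20.6 and 19.4 CPM in sedentary TME libraries, and averaged 31.1 ± 3.35 against 26.9 ± 1.52 CPM in cancer libraries (SD, n = 7 and 8). Mybbp1a was the 1 called of 17 nucleolar genes (0.23 ± 0.053, adjusted p = 0.047, edgeR), beside 0.343% of all genes called higher. The nucleolar list had a median of 0.015.

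Called genes differed from the rest in transcript length and base composition. The median transcript length was 2016 bases for genes called higher and 1006.5 bases for genes called lower, against 1363 bases over all genes. The median GC content was 45.6% and 53.4%, against 50.1%. Over all genes the median mean effect was -0.018 in the shortest 20% and 0.075 in the longest 20% of transcripts. It was 0.11 in the 20% of lowest and -0.055 in the 20% of highest GC content. With length and GC taken into account as offsets, 66 genes were called, 27 higher and 39 lower, in place of 60 higher and 22 lower. Of these 66 genes, only 38 were among the 82 called in the main fit.

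Across the 82 called genes the effect was larger in TME than in cancer cells for 74, with a median size of 0.33 in cancer and 0.71 in TME cells. The difference between both effects had an unadjusted p under 0.05 for 28 of the 82 and for 1316 of all genes, and an adjusted p under 0.05 for 0. Taken 1 sort at a time, the same edgeR fit called 1 gene in cancer cells and 0 in TME cells. In TME cells 37 of the 82 had exercised and sedentary libraries without overlap, against 3.79% of all genes. In cancer cells 4 did, against 0.309% of all genes. The rule used these libraries, so these counts only describe the called genes.

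**Figure D4:**
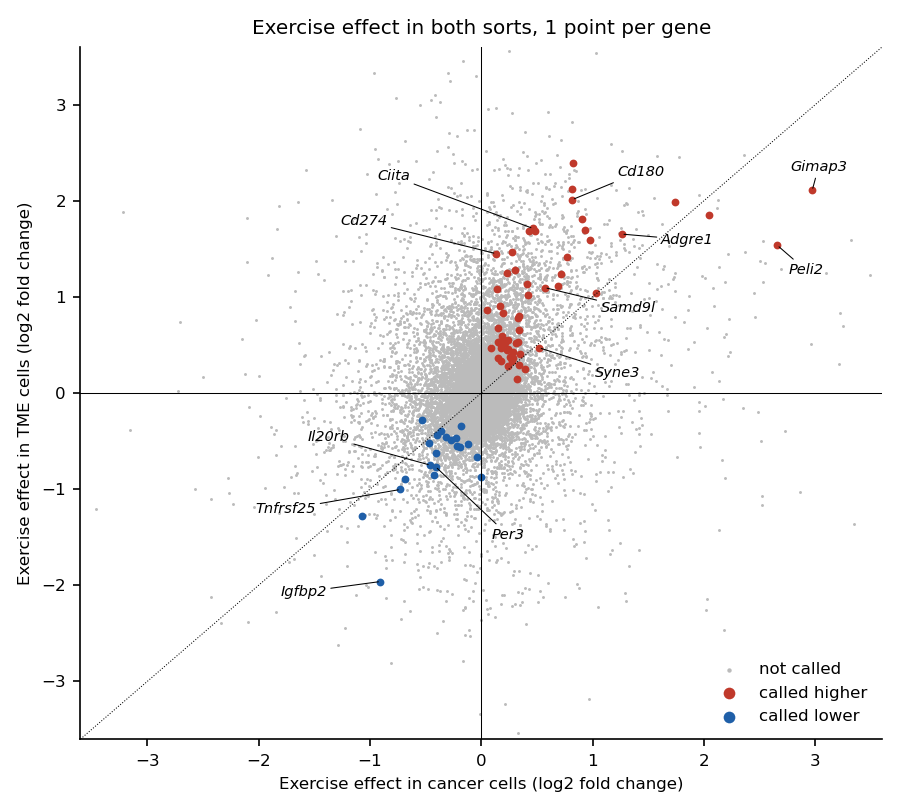
Exercise effect in cancer cells (x) and TME cells (y), as log2 fold changes of exercised over sedentary libraries, 1 point per gene, with called genes in red (higher) and blue (lower) and equal effects on the dotted line. All called genes lie where both effects are above 0 or both are below 0, and 74 of 82 are farther from 0 in TME cells; 18 of 17503 genes, 2 of them called, lie outside the axes.

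A stricter reading of a shared effect asks for a difference in each sort on its own, with each sort fitted separately and the larger of both p-values taken. By this rule 0 of 14775 genes were called by edgeR, and the smallest adjusted value was 1, while DESeq2 called 1, Tnfrsf25. At an unadjusted p under 0.05 in each sort, 206 genes (1.39%) moved the same way, 111 higher (0.751%) and 95 lower (0.643%), and 19 (0.129%) moved opposite ways. The 206 were 10.9% of the 1882 genes under 0.05 in cancer cells and 16.8% of the 1227 in TME cells. Tnfrsf25 had the smallest larger p, with -0.77 ± 0.15 in cancer and -1.02 ± 0.20 in TME cells, followed by Il20rb with -0.50 ± 0.12 in cancer and -0.77 ± 0.16 in TME cells. After them below 0 came Mepce, the capping enzyme gene of 7SK RNA (-0.51 ± 0.15 in cancer and -0.45 ± 0.11 in TME cells), then Thrsp, the sugar transporter gene Slc50a1 (-0.44 ± 0.12 in cancer and -0.45 ± 0.13 in TME cells), Tef, Ptn and Ipo13. Above 0 the ranking was led by Samd9l (0.54 ± 0.13 in cancer and 1.07 ± 0.31 in TME cells) and Fam208b, then Gda, which encodes guanine deaminase (0.27 ± 0.094 in cancer and 0.51 ± 0.16 in TME cells), the interferon-responsive gene Parp14 (0.38 ± 0.13 in cancer and 0.61 ± 0.20 in TME cells), Mgea5, Phf11d, Csf2rb2, which encodes a mouse interleukin-3 receptor chain (0.68 ± 0.25 in cancer and 1.22 ± 0.38 in TME cells), and the Golgi gene Trip11 (0.24 ± 0.074 in cancer and 0.32 ± 0.11 in TME cells). Their larger p-values were 0.00551 to 0.0158 above 0 and 0.000244 to 0.00721 below 0.

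Gene lists that held few or 0 called genes still differed in where their members lay, beside a median of 0.026 and 55.3% of genes above 0 over all genes. Of 24 G2 and M phase genes 20 lay above 0 (median 0.21; 0.23 in cancer and 0.13 in TME cells) and 0 were called. That median was 0.098 without exercised TME libraries 8 and 9, 0.10 with the mitochondrial share in the fit and 0.12 without sedentary TME libraries 4 and 6. The mitotic spindle gene Hmmr came nearest, with 0.44 ± 0.11 (adjusted p = 0.0515), and its levels were 62.4, 92.7 and 104 CPM (lowest, median, highest) in exercised against 50.8, 58.7 and 74.8 CPM in sedentary cancer libraries and 39.9, 50.004, 41.1 and 30.9 against 27.6, 25.6, 44.9 and 27.2 CPM in TME libraries. The proliferation marker gene Mki67 had 0.33 ± 0.086 (adjusted p = 0.0637). Genes of DNA replication had a median of 0.068, with 13 of 22 above 0, and that median turned to -0.033 with the mitochondrial share, -0.014 without sedentary libraries 4 and 6 and -0.030 without exercised libraries 8 and 9.

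Of 18 heat shock chaperone genes 16 lay below 0 (median -0.21, -0.24 in cancer and -0.23 in TME cells) with 0 called. The exceptions were Hspa4, a co-chaperone of HSP70 (0.17 ± 0.058, adjusted p = 0.129), and Hspa4l (0.16 ± 0.077). Below 0 lay the small chaperone gene Hspb1 (-0.65 ± 0.26, adjusted p = 0.194), the chaperonin gene Hspe1 (-0.31 ± 0.11) and the co-chaperone gene Bag3 (-0.59 ± 0.26). The mean log2 CPM of the heat shock list varied by more than these medians within each group. Its SD was 0.38 in exercised and 0.49 in sedentary cancer libraries, and 0.44 and 0.60 in TME libraries. Exercised and sedentary libraries overlapped in both sorts. Cytosolic ribosomal protein genes lay below 0 for 32 of 36 (median -0.11, 0 called), with Rps14 lowest in p (-0.43 ± 0.10, adjusted p = 0.0531). With the mitochondrial share in the fit their median was -0.037, with 23 of 36 below 0, and without sedentary TME libraries 4 and 6 it was -0.061, with 25 of 36. Sedentary library 4, with its mitochondrial share of 42.2%, had the highest ribosomal level of the TME libraries, a mean log2 CPM of 7.86. Nuclear-encoded respiratory chain genes lay below 0 for 25 of 34 (median -0.089, 0 called), led by Ndufv1 (-0.26 ± 0.077, adjusted p = 0.0902). Uqcrh, a complex III gene outside that list that was named after its value was seen, was called (-0.39 ± 0.090, adjusted p = 0.0492). Collagen and matrix genes lay below 0 for 18 of 22 (median -0.23, 0 called), with the proteoglycan gene Bgn at -0.48 ± 0.17 and the matricellular gene Postn at -0.36 ± 0.12. In the fit with the leukocyte level and in that without exercised TME libraries 8 and 9, the median was -0.091 and -0.10 for collagen and matrix genes and -0.085 and -0.12 for heat shock genes. The 15 mitochondrially encoded genes had a median of -0.11 in cancer and -2.15 in TME cells. Without sedentary TME libraries 4 and 6 the median of both sorts was 0.080, against -1.097 with them.

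Lists tied to exercise by name held 0 called genes. The 18 secreted factors tested that respond to exercise had a median of -0.12 and 0 called, fatty acid oxidation and PGC-1 target genes 0.0091 over 14, adrenergic receptor and cAMP target genes -0.15 over 12, glucocorticoid targets 0.14 over 12, and immediate early genes -0.036 over 20, each with 0 called. Glycolysis (-0.025 over 19 genes) and hypoxia response genes (0.0021 over 17) also held 0 called genes. A list with 0 calls is not shown to be without change.

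**Figure D5:**
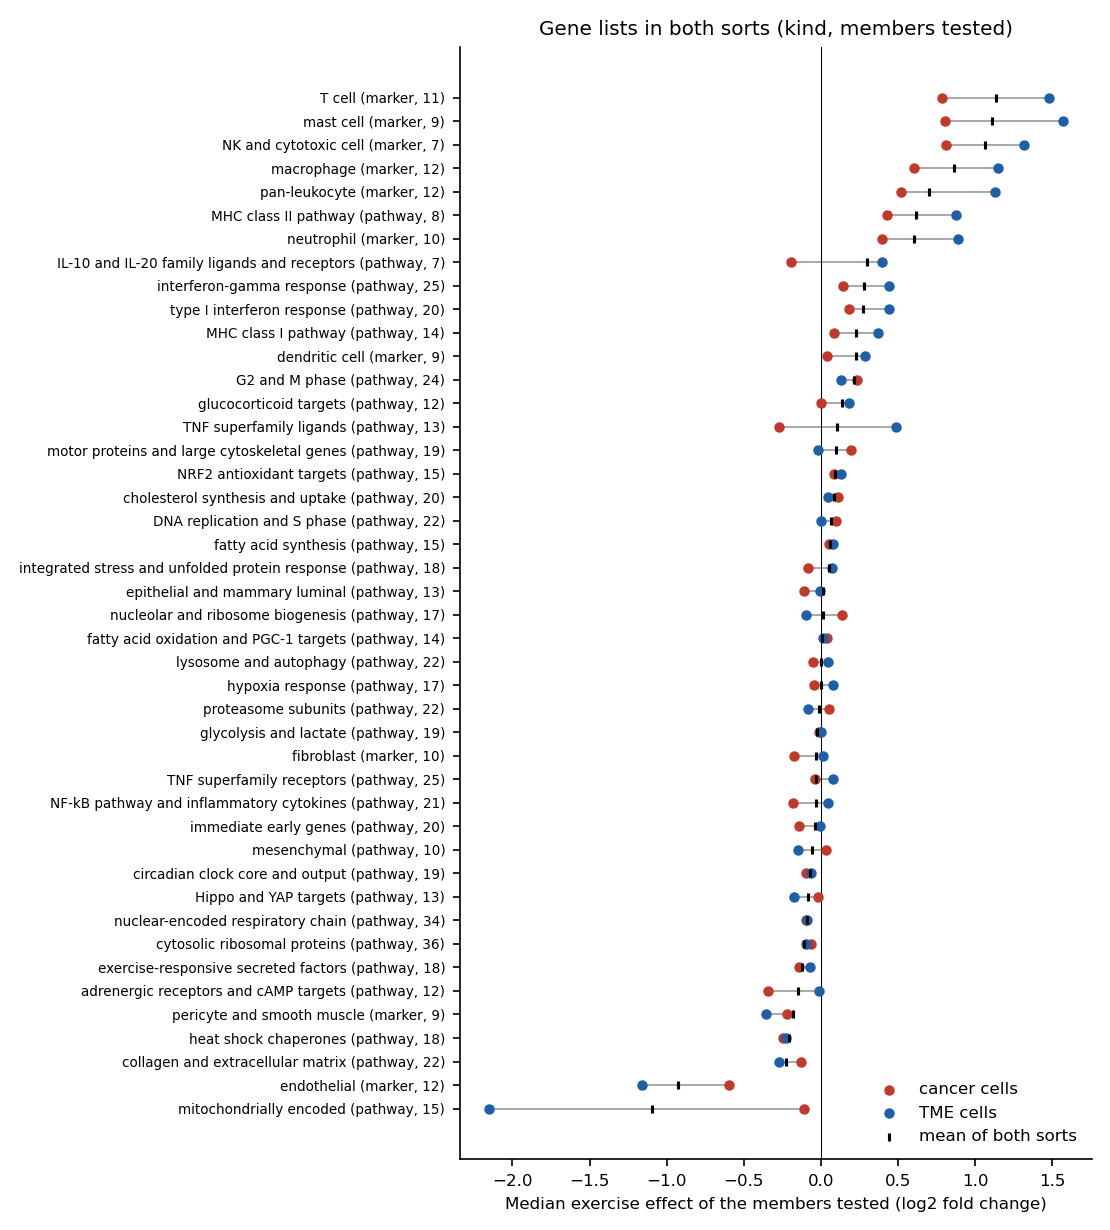
Median exercise effect (log2 fold change) of each gene list with at least 7 members tested, in cancer cells (red), TME cells (blue) and their mean (black bar), with the kind of list and the number of members tested in brackets. Macrophage, T cell and mast cell markers lie to the right in both sorts, endothelial markers to the left, and the mitochondrially encoded genes are apart in TME cells, at -2.15, from -0.11 in cancer cells.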

How the data were processed

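RNA of sorted cells was sequenced from polyA RNA by a KAPA mRNA-Seq kit, per the labels' protocols. The authors deposited a table of raw read counts, made with STAR and featureCounts on mm10 per the submitters' processing notes. Neither versions nor annotation release nor strand setting is stated there. No column of other samples was present, and no row lacked a gene name. Counts of overlapping and near-identical genes may be shared.

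From these counts, edgeR 4.0.16 in R 4.3.3 gave all main tests (filterByExpr with a minimum count of 10, TMM scaling, 4-group design without block, robust quasi-likelihood test, two-sided, Benjamini-Hochberg adjustment, threshold 0.05). Effects are log2 fold changes ± the fit's standard error. CPM values are TMM-scaled. List levels are mean log2 CPM with a prior count of 2. Coordinates are of GRCm38 in GENCODE M21, matched by symbol for 46467 of 48397 symbols (96.01%). Genes were named by rule: per direction the 12 of smallest p, the 8 of smallest larger p over both sorts, up to 4 members with the smallest p in each list described, the clock list, Tnfrsf25 and Il20rb. Predicted genes, 8 of the 82 called, were left out of these rankings, and some genes that the rule names are not reported here. Receptor partners and Ddx60, Slfn8, Casp1, Pnpt1, Lair1, Lilr4b, Dync1h1, Tex2, Hspa4l and Uqcrh were named after their values were seen. The members and lists were chosen with earlier results of these data known, so no list is independent support. Alternatives were DESeq2 1.42.0, voom of limma 3.58.1 with quality weights, RLE factors, other filters, blocks, covariates, 1 surrogate variable from sva 3.50.0 and left-out libraries. The test was tried on simulated data.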

Additional observations from a re-analysis of the deposited data

Results flagged for a closer look

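In each group, the gap between the highest or lowest library and its neighbour was set against the range of the group by Dixon's criterion at 95%, for 22 genes and 5 library measures in 4 groups. Of 108 groups of values 12 exceeded the criterion, where chance gives about 5, or 1 in 20. The exercised TME library 10 had 65.7 CPM of Tef, the next 46.9. Exercised cancer library 8 was highest for Arntl (32.3 CPM, the next 29.05) and Lair1 (5.21 CPM, the next 3.19). Thrsp was highest in sedentary TME library 10 (20.6 CPM, the next 12.9) and in sedentary cancer library 5 (17.6 CPM, the next 8.16). Rsad2 was lowest in exercised cancer library 1 (1.21 CPM, the next 2.28) and highest in sedentary cancer library 6 (4.38 CPM, the next 2.39). Nlrc5 was highest in sedentary cancer library 10 (192 CPM, the next 122), and Hmmr in sedentary TME library 9 (44.9 CPM, the next 27.6). Sedentary cancer library 3 had the lowest pan-leukocyte level of its group (a mean log2 CPM of 1.20, the next 1.83), and sedentary TME library 4 the highest endothelial level (5.46, the next 3.54). Sedentary cancer library 7 had the highest mitochondrial share of its group, 3.9% of counts. No gene named here had an adjusted p under 0.05 for the difference between the effects in cancer and TME cells.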

How the results depend on the processing

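The 82 calls (60 higher, 22 lower) became 527 (362 higher, 165 lower) with DESeq2, 2178 (1445 higher, 733 lower) with limma voom and quality weights, 41 (24 higher, 17 lower) with RLE factors, 46 (30 higher, 16 lower) without a filter, 133 (74 higher, 59 lower) at a mean CPM of at least 1, 6 (2 higher, 4 lower) in a model of sort and treatment without interaction, 143 (103 higher, 40 lower) with 1 surrogate variable and 52 (33 higher, 19 lower) without mitochondrial genes. They were 0 with the mitochondrial share or the pan-leukocyte level as a covariate (1672 and 1331 at an unadjusted p under 0.05). They were also 0 without sedentary TME libraries 4 and 6 and without exercised TME libraries 8 and 9 (2279 and 1399 at that p). With length and GC offsets there were 66 (27 higher, 39 lower), of which 38 were among the 82. Leaving out each library gave 1 to 1158. With the replicate number as a block there were 3 (1 higher, 2 lower), and with the number within a treatment as a random block (consensus correlation 0.0693) 2 (0 higher, 2 lower). The numbers in the labels were not taken as pairs: across genes, deviations from group means correlated above 0.1 for 6 of 7 pairs of sorts with 1 number and treatment (lowest -0.27), and for 2 of 7 pairs of treatments. No called gene changed sign in the alternatives in which it was tested, all 38 for 78 of the 82 genes and 36 or 37 for the others. With the leukocyte covariate 67 of 82 called genes kept at least 50% of their effect, and 66 without exercised TME libraries 8 and 9. Tnfrsf25 was called in 34 of 38 alternatives and Il20rb in 31, and their adjusted p reached 0.125 and 0.228. By the larger p, 0 genes became 1 with DESeq2. In each sort alone, 65 to 808 genes were under 0.05 with the same sign and 7 to 86 with opposite signs over the 30 alternatives run for this rule. The leukocyte covariate, the removal of libraries 8 and 9, the offsets and the scaling without mitochondrial genes were chosen after the data were seen.

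Some clock genes near 0, and Il19 and Il24 with SEs larger than their effects, changed sign, and the cause was not tested. Single values below are only those that reversed the sign, with other tools, blocks, covariates, libraries or offsets. Ranges are over the fits with each library left out. Hlf was at -0.12, -0.12, -0.10, -0.21, -0.16 and -0.13 to 0.19, and Bhlhe40 at 0.16, 0.13, 0.089, 0.060, 0.054 and -0.18 to 0.0096. Usp2 was at 0.040, 0.095, 0.10 and -0.17 to 0.016, and Per1 at 0.087, 0.12 and -0.29 to 0.017. Clock was at -0.066, Cry2 at -0.049, Rora at 0.038, Il19 at 0.50, 0.29, 0.31, 0.062, and Il24 at -0.083 and -0.047 to 0.59. Most alternatives kept the sign: 31 of 38 for Hlf, 32 for Bhlhe40, 34 for Usp2 and Il19 and 35 for Per1. It was kept in 36 for Il24 and in 37 for Clock, Cry2 and Rora. Depth limits the genes with few reads, such as Peli2, Il19 and Il24.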
